A study of Mus musculus with 26 samples.

Results

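The tensin family of 4 genes, Tns1, Tns2, Tns3 and Tns4, was followed through RNA-seq of MaTAR25 knockout 4T1 cells and through MaTAR25 ChIRP-seq peaks. The genes were taken by symbol, as 4 of the 45318 genes counted, and every peak that lay in one of them or had one of their promoters nearest was added. 4T1 is a mouse mammary tumor cell line of BALB/c origin. MaTAR25, annotated as 1200007C13Rik, is a nuclear long non-coding RNA. The RNA-seq groups were 2 libraries of wild type Control cells, 3 of MaTAR25-/- KO1 cells and 4 of MaTAR25-/- KO2 cells. Each knockout line was grown from 1 sorted cell after a pair of Cas9 guides removed the transcription start site. Control cells had received a guide against Renilla luciferase, and the study describes them as single-cell clones too. Effects of the deletion and of the clone can therefore not be told apart within a line. A difference from control can also hold an effect of a control clone. No source used here says that the libraries of a line came from separate cultures, so the p-values measure only the spread between these libraries. In bulk RNA, fewer cells of a type and less RNA per cell cannot be told apart.

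Tensins are adaptor proteins of focal and fibrillar adhesions, the sites where integrins connect the extracellular matrix to actin. Tns1, Tns2 and Tns3 share an N-terminal region that binds actin, followed by an SH2 and a PTB domain, through which they meet tyrosine-phosphorylated proteins and integrin beta tails. Tns4, also called CTEN, keeps the SH2 and PTB domains but lacks the actin-binding N-terminus. In mammary epithelial cells, growth factor signaling is known to replace Tns3 at integrins with Tns4.

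In GENCODE vM21 on GRCm38, Tns1 (ENSMUSG00000055322) covers chr1:73910231-74124449 on the minus strand and Tns2 (ENSMUSG00000037003) covers chr15:102100413-102116401 on the plus strand. Both other genes lie on the minus strand of chromosome 11, Tns3 (ENSMUSG00000020422) at chr11:8431652-8664535 and Tns4 (ENSMUSG00000017607) at chr11:99065678-99089306. The family thus holds a pair of long genes, Tns1 of 214.2 kb and Tns3 of 232.9 kb, and a pair of short ones, of which Tns4, at 23.6 kb, is the longer. The longest annotated coding sequences encode 1888 residues for Tns1, 1407 for Tns2, 1440 for Tns3 and 696 for Tns4. No other annotated gene overlapped a tensin gene.

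The libraries held 25367211 to 61110585 counts on genes, and levels are given as CPM, the count scaled to a common library size after TMM normalization. For MaTAR25 itself, 35 and 30 reads were counted in Control, while KO1 libraries gave 2, 7 and 0 and KO2 libraries gave 11, 1, 9 and 6. Its CPM was 0.842 ± 0.104 (SD, n = 2) in control and 0.134 ± 0.116 (SD, n = 7) in knockout libraries, with a log2 fold change of -2.63 (SE 0.82, adjusted p = 0.0561, edgeR quasi-likelihood test). Each knockout library was below both control libraries. Epithelial markers went both ways. Cdh1 was lower in knockout libraries (log2 fold change -0.65, adjusted p = 0.0684), Epcam had -0.43 (adjusted p = 0.532), and the keratin Krt7 was higher in KO1 than in control (1.89, adjusted p = 0.00468). The summed CPM of 7 epithelial markers ran from 3580 to 3784 in control, from 4983 to 7193 in KO1 and from 2113 to 4322 in KO2 libraries. Of smooth muscle genes, a tissue rich in Tns1, the 4 markers summed to at most 1.31 CPM in any library. The 6 fibroblast markers summed to 20.3 to 25.9 CPM in control, 21.6 to 40.6 in KO1 and 11.8 to 47.6 in KO2 libraries, nearly all of it Pdgfra. Within that list the collagen gene Col1a1 was lower in knockout libraries (-3.00, adjusted p = 0.0132), and Col1a2 was higher in KO1 than in control (3.02, adjusted p = 0.0644), at under 1 CPM in each library. The 3 leukocyte markers summed to 3.20 to 4.21 CPM in control, 11.4 to 28.4 in KO1 and 1.77 to 20.3 in KO2 libraries. The endothelial marker Cdh5 was higher in KO2 than in control (adjusted p = 0.0317) at no more than 1.39 CPM. All of these are differences in marker RNA in a cultured tumor cell line, and their part in the tensin values was not tested.

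Per kb of merged exons, the family in control cells consisted almost wholly of Tns2 and Tns3. By that measure Tns4 was the most abundant tensin in most knockout libraries. By CPM, not divided by length, Tns3 was above Tns4 in KO1 replicate 1 and in KO2 replicates 1, 2 and 4. It was below Tns4 in KO1 replicates 2 and 3 and in KO2 replicate 3. Tns4 was 26.7-fold higher in knockout than in control libraries and Tns3 was 1.64-fold higher, both past the threshold. Tns2 was lower in KO2 than in control and in KO1, and both differences passed the test. Tns1, the tensin with the strongest peaks, was the least abundant of the 4 in each of the 9 libraries. Its lower level in knockout libraries did not pass the threshold with edgeR but did with DESeq2, the tool of the study. Of the 4 tensin genes, 2 were called at an adjusted p under 0.1 between knockout and control libraries, both higher, where 22.6% of the 15023 genes tested were called. Over all genes, 11.9% were called higher and 10.7% lower, and the median log2 fold change was 0.06.

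**Figure D1:**
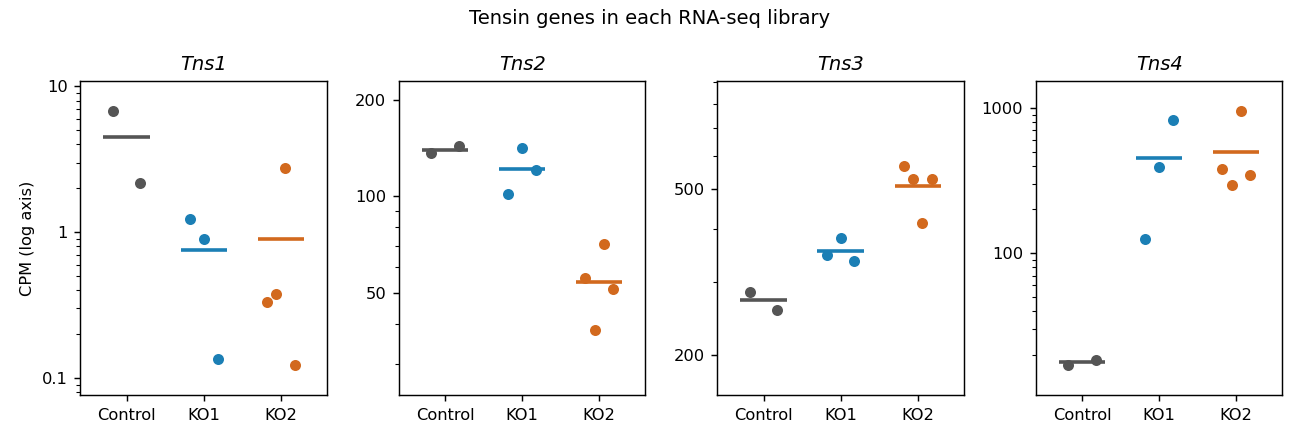
CPM on a log axis for the 4 tensin genes in 2 Control, 3 KO1 and 4 KO2 libraries, each panel with its own range. Points are libraries and lines are group means. Tns4 rises from 16.9 and 18.5 CPM in control to 125 CPM or more in each knockout library, and Tns2 is separated between KO1 and KO2.

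The member with the largest difference was Tns4, the short tensin without an actin-binding N-terminus. Control libraries had 16.9 and 18.5 CPM. It was at 125, 392 and 831 CPM in KO1 and at 380, 293, 956 and 346 in KO2. The control libraries lay close together and far below every knockout library, while the knockout libraries spread widely within each clone. The mean was 17.7 ± 1.13 CPM (SD, n = 2) in control and 475 ± 302 CPM (SD, n = 7) in knockout libraries. The log2 fold change was 4.74 (SE 0.82, adjusted p = 0.00572, edgeR), which was rank 179 by size among the 15023 genes tested. An exact two-sided permutation test over libraries gave p = 0.0278, the smallest that 36 regroupings allow. Both clones carried the difference, with log2 fold changes of 4.66 (SE 0.86, adjusted p = 0.00604) in KO1 and 4.80 (SE 0.85, adjusted p = 0.00521) in KO2. The clones themselves differed by -0.14 on the log2 scale (KO1 minus KO2, SE 0.58, adjusted p = 0.899). Without Control replicate 1 the log2 fold change was 4.69 and no longer called (adjusted p = 0.104), while without Control replicate 2 it was 4.81 and called (adjusted p = 0.0933).

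The long tensin Tns3, which carries the actin-binding region, moved the same way by a smaller amount. Its CPM was 284 and 257 in control libraries. It was 347, 383 and 336 in KO1 and 566, 528, 414 and 527 in KO2. All 3 groups were separated, with control lowest, KO1 between and KO2 highest. The means were 271 ± 18.9 (SD, n = 2) in control and 443 ± 95.4 (SD, n = 7) in knockout libraries. The log2 fold change was 0.71 (SE 0.23, adjusted p = 0.0655, edgeR), with an exact permutation p of 0.0278. KO2 alone differed from control by 0.91 (SE 0.16, adjusted p = 0.00494), and KO1 alone by 0.39 (SE 0.16, adjusted p = 0.111), which missed the threshold. The difference between the clones was -0.52 (KO1 minus KO2, SE 0.14, adjusted p = 0.0405). The call of KO against control was lost without Control replicate 1 (adjusted p = 0.275) and without Control replicate 2 (adjusted p = 0.369). The difference between the clones was not called without KO1 replicate 1, 2 or 3, at adjusted p-values of 0.124, 0.111 and 0.123.

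Tns2, a short gene whose protein carries an additional C1 domain at the N-terminus, separated the clones. Its CPM was 136 and 143 in control and 101, 142 and 121 in KO1. In KO2 it was 55.7, 38.4, 71.1 and 51.2. KO1 libraries overlapped the controls, and each KO2 library lay below each library of the other groups. KO2 differed from control by -1.37 on the log2 scale (SE 0.22, adjusted p = 0.00395, edgeR), a ratio of 0.388. KO1 differed from control by -0.20 (SE 0.24, adjusted p = 0.580). The difference between the clones was 1.16 (KO1 minus KO2, SE 0.20, adjusted p = 0.0112), and the exact permutation test over 35 regroupings gave p = 0.0286, its smallest value. With the clones joined, the log2 fold change against control was -0.75 (SE 0.42, adjusted p = 0.253). The call of KO2 against control and that of the difference between the clones were kept without each of the 9 libraries in turn, with adjusted p-values up to 0.0493 and 0.0610.

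Tns1, the founding tensin and the gene that the study placed downstream of MaTAR25, was scarce in all of these libraries. It had 310 and 71 counts in control, 77, 27 and 5 in KO1 and 12, 9, 122 and 6 in KO2. In CPM, control libraries were at 6.80 and 2.17, KO1 at 1.23, 0.896 and 0.135, and KO2 at 0.335, 0.379, 2.76 and 0.123. The 2 control libraries lay far apart, KO2 replicate 3 lay between them, and the other 6 knockout libraries lay below both. The means were 4.49 ± 3.28 CPM (SD, n = 2) in control and 0.836 ± 0.941 CPM (SD, n = 7) in knockout libraries. The log2 fold change was -2.41 (SE 0.93, adjusted p = 0.110, edgeR), and the exact permutation p was 0.0556. The values by clone were -2.56 (SE 1.19, adjusted p = 0.149) in KO1 and -2.30 (SE 1.08, adjusted p = 0.154) in KO2. Leaving out Control replicate 1, the library with most Tns1, gave -1.35 (adjusted p = 0.640), and leaving out KO2 replicate 3 gave -3.10 (adjusted p = 0.0311). DESeq2, the tool of the study, gave -2.42 with an adjusted p of 0.0595, under the threshold. The study also reported less Tns1 RNA by qRT-PCR and less protein by immunoblot in knockout cells. It reported less Tns1 RNA after antisense knockdown of MaTAR25 and more after ectopic MaTAR25 in knockout cells.

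**Figure D2:**
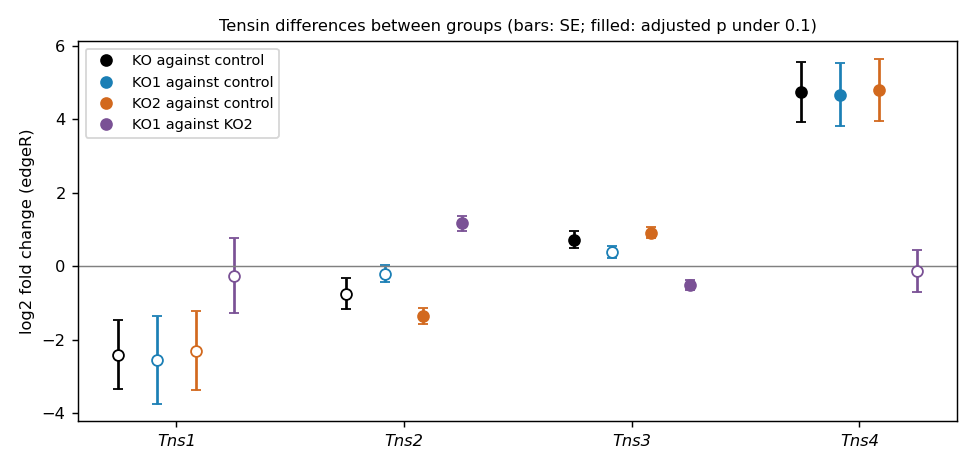
Log2 fold changes of the 4 tensin genes (edgeR, bars are SE) for KO, KO1 and KO2 against control and for KO1 against KO2, filled where the adjusted p is under 0.1. Tns4 is filled in each comparison with control, at 4.66 to 4.80, and Tns1 is open in each comparison.

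By clone, 1 of 4 tensin genes was called in KO1 against control, where 31.6% of all genes were called, and 3 of 4 in KO2, where 31.4% were called. Between the clones 2 of 4 were called, beside 19.6% of all genes. Libraries of the groups did not overlap for Tns3 and Tns4 in KO against control, as for 34.4% of all genes. They did not overlap for Tns1, Tns3 and Tns4 in KO1 against control, as for 66.9% of all genes, nor for Tns2, Tns3 and Tns4 in KO2 against control, as for 46.9%. Between the clones they did not overlap for Tns2 and Tns3, as for 24.5% of all genes. The comparisons with control share the same 2 libraries. With so few controls such separation is common, so these counts say little by themselves.

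To order the genes within a library, CPM was divided by the length of the merged exons in kb. In control libraries Tns2 stood at 25.6 ± 0.92 and Tns3 at 24.2 ± 1.69 CPM per kb (SD, n = 2), and their order differed between the 2 libraries. Tns4 followed at 3.43 ± 0.22 and Tns1 at 0.280 ± 0.205 CPM per kb. In 6 of 7 knockout libraries the order was Tns4, Tns3, Tns2 and Tns1. In KO1 replicate 1, Tns3 at 31.1 CPM per kb was above Tns4 at 24.2 CPM per kb. In knockout libraries Tns4 ranged from 24.2 to 185 CPM per kb and overlapped Tns3, at 30.1 to 50.7 CPM per kb. Each Tns2 value lay below each Tns3 value there, and Tns1 reached at most 0.172 CPM per kb. In control libraries the neighbours Tns2 and Tns3 overlapped, and Tns4 and Tns1 were each apart from the gene above.

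The make-up of the family changed accordingly. Tns4 was 6.42 ± 0.50% (SD, n = 2) of the summed tensin level per length in control and 57.5 ± 15.5% (SD, n = 7) in knockout libraries. Tns2 was 47.8 ± 2.39% in control, 18.2 ± 7.41% in KO1 (SD, n = 3) and 6.78 ± 1.02% in KO2 (SD, n = 4). The summed level was 53.0 and 54.0 CPM per kb in the control libraries and 73.9 to 235 CPM per kb in the knockout libraries, so no knockout library had less tensin RNA per length than a control. A share falls when another member rises, so these shares are not separate evidence for any gene.

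**Figure D3:**
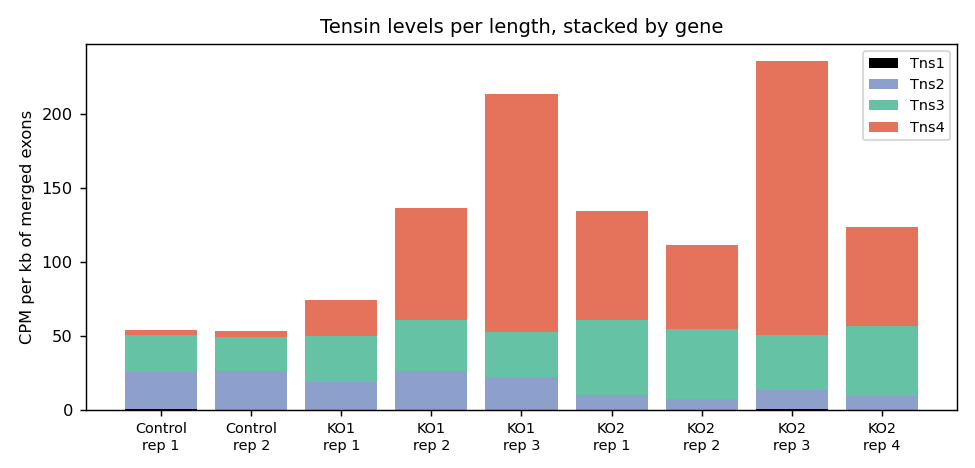
CPM per kb of merged exons for the 4 tensin genes, stacked for each of the 9 libraries. The 2 control bars reach 53.0 and 54.0 and consist mostly of Tns2 and Tns3, while Tns4 makes up most of each knockout bar except that of KO1 replicate 1.

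For each tensin, the genes with the nearest profile were found by the root mean square difference of centred log2(CPM + 1) over the 9 libraries, among 12029 other genes whose average was 1 CPM or more. Nearest to Tns4 were S100a4, which encodes a calcium-binding protein known in metastasis, Il24, a cytokine, and Steap3, a metalloreductase. Their differences from Tns4 were 0.747, 0.849 and 0.910, against a standard deviation of 2.12 for Tns4 itself. S100a4 had mean CPM of 2.28 in control, 26.1 in KO1 and 36.2 in KO2.

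Nearest to Tns3 were Tmsb10, an actin monomer-binding thymosin, Zbtb2 and Gm3788, at 0.114 to 0.133 against a standard deviation of 0.405. Nearest to Tns2 were Gm13648, Cblc, a ubiquitin ligase that acts on receptor tyrosine kinases, and Tbc1d31, at 0.107 to 0.143 against 0.713. Nearest to Tns1 were Adgra1, Srcin1, which encodes an inhibitor of Src, and Epgn, an EGF-family ligand, at 0.348 to 0.412 against 0.940. These likenesses describe 9 libraries that share clones and differ in depth.

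Tensins work with integrins, RhoGAPs, other adhesion adapters and tyrosine kinases, and a list of 33 such genes was read from the same fit. Of these, 32 were tested and 6 were called in KO against control (18.8%), 1 higher and 5 lower, which is near the 22.6% over all genes. The list's median log2 fold change was -0.11. The adapters made up 3 of the 6. Fermt1, the epithelial kindlin that activates integrins, was at 254 and 226 CPM in control and 68.5 to 122 CPM in knockout libraries, a log2 fold change of -1.49 (SE 0.19, adjusted p = 0.00181). Lims1, which encodes the PINCH adapter of integrin-linked kinase, fell by 0.95 on the log2 scale (SE 0.17, adjusted p = 0.00699).

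Paxillin, encoded by Pxn, is a scaffold of focal adhesions and fell by 0.56 on the log2 scale (SE 0.15, adjusted p = 0.0345). The integrin subunit Itgb5 fell by 1.03 (SE 0.38, adjusted p = 0.0981) and the kinase Src by 0.46 (SE 0.17, adjusted p = 0.0914), both close to the threshold. Axl, a receptor tyrosine kinase, was at 383 and 495 CPM in control and 704 to 1346 CPM in knockout libraries, with a log2 fold change of 1.29 (SE 0.23, adjusted p = 0.00700). The tensin-binding RhoGAP Dlc1 had -0.83 (SE 0.56, adjusted p = 0.346), and Egfr and Met, whose signals act on Tns4, had 0.00 (SE 0.62, adjusted p = 1.00) and 0.43 (SE 0.25, adjusted p = 0.282). The joined value of Egfr averages over clones with unlike ranges. Egfr was at 3.23 to 4.37 CPM in control, 4.53 to 6.27 CPM in KO1 and 1.12 to 5.38 CPM in KO2 libraries. The ranges of the clones overlapped. Vcl, which encodes the adhesion protein vinculin, had -0.03 (SE 0.29, adjusted p = 0.956). In KO1 against control 12 of 32 were called (37.5%, against 31.6% of all genes) and in KO2 against control 6 of 32 (18.8%, against 31.4%).

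**Figure D4:**
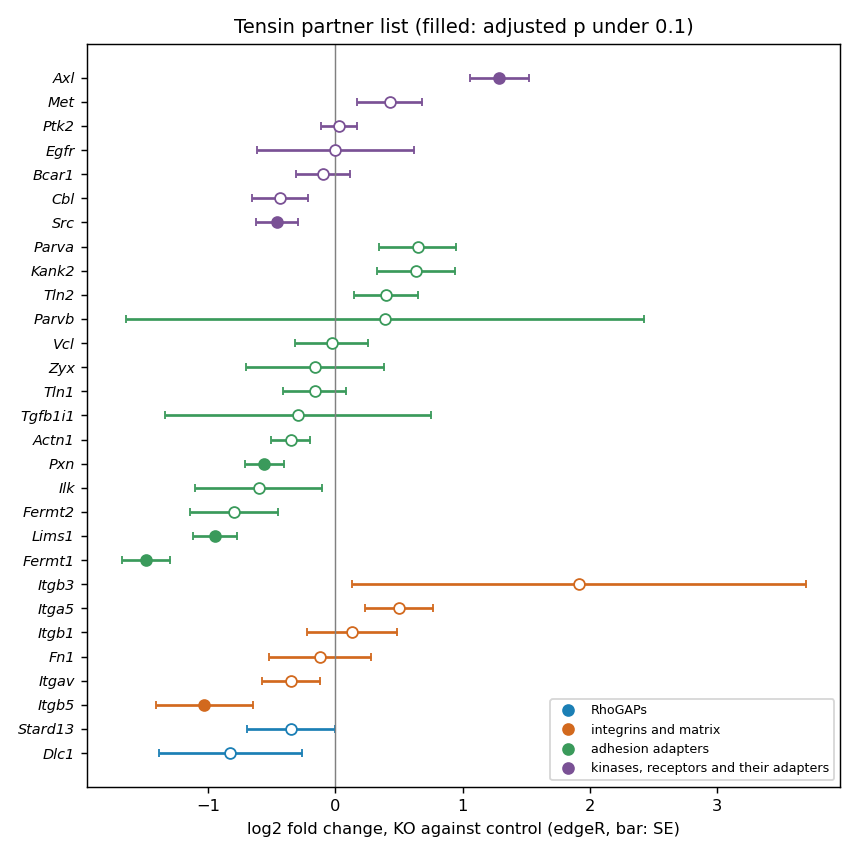
Log2 fold changes in KO against control (edgeR, bars are SE) for the tested RhoGAPs, integrin and matrix genes, adhesion adapters, and kinases and receptors of the tensin partner list, colored by role and filled where the adjusted p is under 0.1. The 6 filled points are Axl on the right and Fermt1, Itgb5, Lims1, Pxn and Src on the left.

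Purb encodes the purine-rich element-binding protein that the study places with MaTAR25 at Tns1, and Pura and Ybx1 encode proteins that can form complexes with it. Purb was at 248 ± 24.1 CPM (SD, n = 2) in control and 284 ± 28.4 CPM (SD, n = 7) in knockout libraries, a log2 fold change of 0.20 (SE 0.15, adjusted p = 0.391). Pura did not pass the threshold against control either, at 0.09 (SE 0.24), but differed between the clones by 0.54 (KO1 minus KO2, SE 0.15, adjusted p = 0.0459). Ybx1 was higher in knockout libraries by 0.75 (SE 0.24, adjusted p = 0.0632).

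ChIRP-seq recovers DNA that travels with an RNA when biotin oligos antisense to that RNA are pulled down. Here 14 MaTAR25 oligos were used together (total), or as pools of 7 odd-numbered and 7 even-numbered oligos, against a pulldown with 8 oligos for Ppib, the transcript of cyclophilin B. The 4 peak lists came from wild type 4T1 cells (total, odd and even) and from NDL mammary tumor cells of the FVB strain (total). The labels call the NDL cells primary and their genotype MMTV-PyMT, while the study lists these peaks under cNeu, which its methods give as the MMTV-Neu-NDL cell line NF639, and this conflict could not be settled here. Each list pools replicates, so peak scores carry no replicate error and are compared only within a list by rank. The lists held 76806, 61311, 64607 and 70329 peaks, of which 30, 23, 33 and 32 belonged to the tensin genes.

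The peaks were divided very unevenly among the genes. Tns1 had 16 peaks in the 4T1 total list, 10 in the odd list, 17 in the even list and 17 in the NDL list, all inside the gene. Tns3 had 12, 9, 12 and 9, of which 8, 6, 9 and 7 lay inside it. Tns4 had 2, 4, 4 and 5, mostly upstream, and Tns2 had none in the 4T1 lists and 1 in the NDL list. Gene length has a part in such counts. Among 2492 protein-coding genes of at least 100 kb, the median was 3.29 peaks per 100 kb in the 4T1 total list. Tns1 had 7.47 peaks per 100 kb, rank 37, and Tns3 had 3.44, rank 1155. In the odd, even and NDL lists, Tns1 was at rank 214, 31 and 19 and Tns3 at rank 1266, 598 and 1184. Of 3037 genes of 15 to 25 kb, the size of Tns2 and Tns4, 49.9% had a peak in the 4T1 total list.

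The leading tensin peak lay in Tns1 in each list. It scored 3162 in the 4T1 total list, the second highest of all peaks, 4136 in the odd list (rank 5), 1771.9 in the even list (rank 2) and 2739.9 in the NDL list (rank 2). Merged over the lists, the region was chr1:74048222-74049142, in an intron, 75.8 kb into the gene from its 5′ end and at -11.5 kb from the nearest internal start site. The study prints a Tns1 target sequence whose first bases occur in this region. It calls that target the promoter region of the major Tns1 isoform in 4T1 cells. It reported PURB protein there by chromatin immunoprecipitation, reduced in MaTAR25 knockout cells and restored by ectopic MaTAR25. By FISH it reported MaTAR25 RNA overlapping a Tns1 allele more often than MaTAR26 RNA did. By ChIRP-qPCR it reported less MaTAR25 binding at Tns1 in PURB knockout cells but not in PURA knockout cells. It also reported that Tns1 expression followed raised or lowered PURB. Which annotated transcript is the major isoform was not determined here. The 250 bases below are the part of this region with most bases matched exactly by a MaTAR25 oligo over at least 12 bases, read on the plus strand of GRCm38, chr1:74048508-74048757. They are shown because the strongest peak of the family lies on them, and capitals mark the matched bases.

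Tns1 intron window: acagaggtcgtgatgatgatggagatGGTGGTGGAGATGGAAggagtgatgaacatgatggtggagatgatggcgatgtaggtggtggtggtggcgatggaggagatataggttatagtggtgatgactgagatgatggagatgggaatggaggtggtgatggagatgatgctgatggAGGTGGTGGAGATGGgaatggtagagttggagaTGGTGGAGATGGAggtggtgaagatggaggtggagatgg

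The only oligo that matched this region over 12 bases or more was number 4, of the even pool. It is shown with capitals at each base that matched some tensin peak in such a run.

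MaTAR25 oligo 4: cAGGTGGTGGAGATGGAAtg

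Oligo 4 matched the window at 3 places, over 16, 15 and 13 bases. The match of 16 bases lay at chr1:74048534-74048549 and used oligo positions 3 to 18, counted from its 5′ end. The longest match of an odd oligo in the region was 10 bases, and no Ppib oligo matched it over 10 bases or more, while the region was the strongest tensin peak of the odd list as well. The window was rich in the motif GGTGG, which occurred 13 times on its plus strand, with overlapping copies each counted, and never on its minus strand. In the 4T1 total peak GGTGG or its complement occurred 18.8 times per kb, above 98.3% of all peaks of that list, whose median was 2.48 per kb. GGTGG on either strand was present in 77.5% of these peaks and in 67.4% of regions of the same length 10 kb away.

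The other Tns1 regions were far weaker. Merging overlapping peaks of the 4 lists gave 26 regions in Tns1, of which 3 were in all lists and 9 in 1 list only. The other 2 regions found in all lists, at chr1:74009766-74010428 and chr1:74014248-74014933, scored 140.5 and 169.1 in the 4T1 total list and had no oligo match of 12 bases. Of the 16 peaks of the 4T1 total list, 14 overlapped a peak of the even list, 14 one of the NDL list and 5 one of the odd list. In the odd list the second strongest Tns1 peak, with a score of 407.2, was in none of the other lists and held a match of 13 bases to oligo 11, of the odd pool. The region nearest the 5′ end of the gene, 4.5 kb inside it, scored 186.4, 117.6 and 137.0 in the 4T1 total, even and NDL lists and was absent from the odd list.

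**Figure D5:**
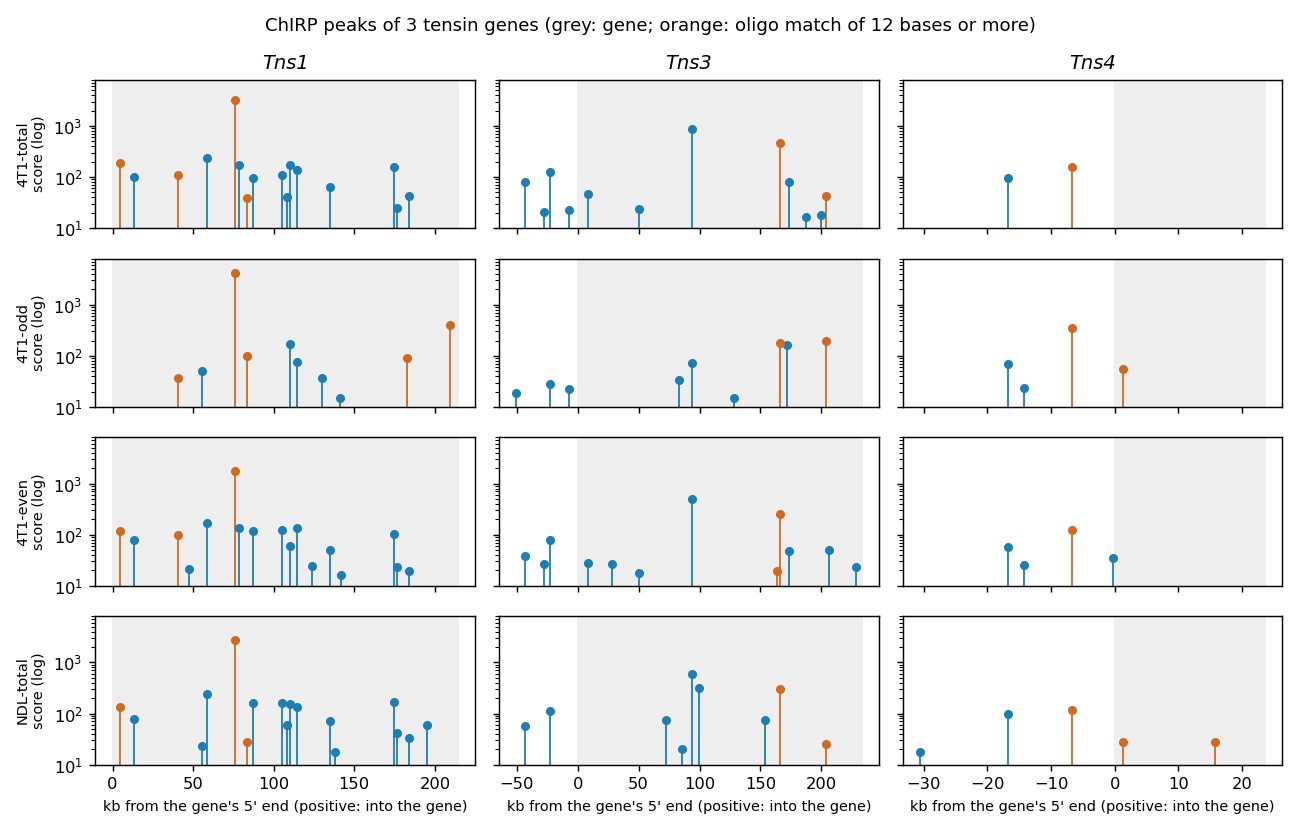
Peaks of Tns1, Tns3 and Tns4 (columns) in the 4 lists (rows), by distance in kb from the 5′ end of the gene and by peak score on a log axis, with each region at the middle of its merged span. Grey marks the gene and orange a region with an oligo match of at least 12 bases. The Tns1 region 75.8 kb into the gene is the highest in each list, and Tns4 has peaks in all 4 lists only upstream of the gene.

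Tns3 had a strong region of another kind. At chr11:8570518-8571560, in an intron 93.5 kb into the gene, the score was 862.6 in the 4T1 total list (rank 84), 506.9 in the even list (rank 211), 597.4 in the NDL list (rank 317) and 71.2 in the odd list (rank 20082). No MaTAR25 oligo matched it over 10 bases or more, the longest Ppib match was 10 bases, and GGTGG or its complement was absent from the 3 peaks of 4T1 cells. Its 250 central bases, chr11:8570915-8571164 on the plus strand, are shown against the Tns1 window and hold no capitals.

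Tns3 intron window: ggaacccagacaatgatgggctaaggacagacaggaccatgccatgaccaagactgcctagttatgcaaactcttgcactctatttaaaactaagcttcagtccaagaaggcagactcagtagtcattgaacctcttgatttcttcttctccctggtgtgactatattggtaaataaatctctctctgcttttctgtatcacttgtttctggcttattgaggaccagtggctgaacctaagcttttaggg

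The second Tns3 region of all 4 lists, chr11:8497703-8499890, scored 458.8, 181.9, 259.2 and 304.4 in the 4T1 total, odd, even and NDL lists. It held a match of 14 bases to oligo 11, shown in capitals in chr11:8497801-8498050 on the plus strand. The oligo lies there on the minus strand, so the genomic letters read as its reverse complement.

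Tns3 second window: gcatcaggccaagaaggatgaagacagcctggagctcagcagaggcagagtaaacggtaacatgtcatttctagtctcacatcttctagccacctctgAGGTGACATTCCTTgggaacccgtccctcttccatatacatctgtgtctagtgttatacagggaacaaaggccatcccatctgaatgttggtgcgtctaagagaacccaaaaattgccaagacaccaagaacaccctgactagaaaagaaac

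MaTAR25 oligo 11: agAAGGAATGTCACCTGtca

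The odd pool holds oligo 11, and the odd list ranked this region at 7972 and the even list at 1799. The peak of the even list began past the match and did not hold it, so these ranks belong to peaks of different extent within the merged region. Another region of all 4 lists lay upstream of Tns3, at -23.0 kb from its start, and scored 27.9 to 123.6. Of 24 regions in all, 14 were in 1 list only, while 8 of the 12 peaks of the 4T1 total list overlapped a peak of the even list. The oligo 11 entry above has more capitals than this region matched, because the oligo also matched Tns1 in the odd list.

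Tns4, the tensin whose RNA differed most, had no peak inside the gene in the 4T1 total or even list. An upstream region at -6.7 kb from its start, chr11:99095675-99096353, was in all 4 lists and scored 157.8 (rank 9034), 344.7 (rank 3734), 123.2 (rank 8031) and 117.2 (rank 11475) in the 4T1 total, odd, even and NDL lists. It held a match of 14 bases to oligo 5, of the odd pool, on the minus strand. The window chr11:99095783-99096032 of GRCm38 shows it on the plus strand.

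Tns4 upstream window: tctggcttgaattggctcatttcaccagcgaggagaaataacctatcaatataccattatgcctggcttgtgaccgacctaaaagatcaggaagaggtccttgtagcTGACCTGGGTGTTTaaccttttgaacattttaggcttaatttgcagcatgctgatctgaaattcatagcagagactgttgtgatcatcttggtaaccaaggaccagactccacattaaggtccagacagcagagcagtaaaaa

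MaTAR25 oligo 5: gaaaggAAACACCCAGGTCA

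Another upstream region, at -16.8 kb, was in all 4 lists with scores of 57.4 to 97.3 and matched no oligo over 10 bases or more. At the start site itself there was a single weak peak, in the even list, with a score of 35.7 at rank 34154 of 64607. The NDL list had 2 weak peaks inside Tns4, scoring 27.8 and 27.2, and the odd list had 1, scoring 56.5. For Tns2, which differed between the clones, the only peak was in an intron in the NDL list, with a score of 57.3 at rank 24754 of 70329. In this family the gene with the strongest peak, Tns1, had the least RNA. The genes with the fewest peaks, Tns2 and Tns4, are also the short ones. Per 100 kb of gene in the NDL list, Tns4 had 8.46 peaks inside it, Tns1 7.94, Tns2 6.25 and Tns3 3.01. In each 4T1 list Tns2 and Tns4 were below Tns1 by this measure. A relation between peaks and RNA level was not tested.

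Matches to the oligos were counted over all tensin peaks. An exact match to some MaTAR25 oligo over 12 bases or more was found in 7 of 30 tensin peaks of the 4T1 total list (23.3%), 8 of 23 of the odd list (34.8%), 5 of 33 of the even list (15.2%) and 8 of 32 of the NDL list (25%). The shares over all peaks of these lists were 24.2%, 23.8%, 19.8% and 23.6%. The tensin shares were close to these in the 4T1 total and NDL lists, above in the odd list and below in the even list. With 23 to 33 tensin peaks per list, such differences are imprecise. In regions of the same length 10 kb away the shares were 1.46%, 1.44%, 1.5% and 1.57%. Matches to the Ppib oligos were in none of the tensin peaks and in 0.316% of all peaks of the 4T1 total list, below the 0.846% of its regions 10 kb away. Peaks were called over the Ppib pulldown, which itself removes sites that Ppib oligos recover, so these low shares are no separate control.

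The matches followed the pool that was pulled down. In the odd list 6 of 23 tensin peaks matched an odd oligo and 2 an even one, and in the even list 1 of 33 matched an odd oligo and 4 an even one. Over all peaks, odd oligos matched 18% in the odd list and 2.02% in the even list, and even oligos matched 6.1% and 18%. The tensin peaks that matched only the other pool's oligos were the leading Tns1 region and another Tns1 region in the odd list, both with oligo 4, and the upstream Tns4 region in the even list, with oligo 5. How much the oligo matches contribute to the peak scores was not tested.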

How the data were processed

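RNA-seq of 9 libraries of 4T1 cells and 4 ChIRP-seq peak lists were used. The authors aligned RNA-seq reads from polyA-selected libraries with STAR to GRCm38, and the deposited values are whole-number HTSeq counts per GENCODE vM5 gene. No source used here states whether counting used strand. Counts not assigned to genes (33.9 to 37.0% of all) were left out. KO2 replicate 2 lists each gene 3 times identically and was used once per gene. The authors called ChIRP-seq peaks with HOMER over the Ppib pulldown on pooled replicates and annotated them with GENCODE vM16, and the deposited peak score was used as given.

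Differences were tested with edgeR 4.0.16 under R 4.3.3 (TMM, filterByExpr, quasi-likelihood test, Benjamini-Hochberg adjustment over all genes tested, threshold 0.1). KO joins KO1 and KO2, and each clone was tested in a fit with 3 groups. DESeq2 1.42.0 was an alternative. Exact two-sided permutation tests used log2(CPM + 1). The fits were tested on simulated counts. Symbols, spans and exon lengths came from GENCODE vM21 (44585 of 45318 genes matched), and peaks were analysed in Python 3.11.15 with pandas 2.3.3 and numpy 2.4.6. Nearest promoters were transcripts of the lists mapped to gene names. Oligo matches were exact, on either strand. Oligos came from the study's table of probe sequences and genomic windows from the RefSeq GRCm38 assembly.

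The members, lists, tests and naming rule were chosen with earlier results of these data known. Genes named are the 4 tensins, MaTAR25, Purb, Pura and Ybx1, the called genes of the partner list, and for each tensin the 3 genes of nearest profile. Dlc1, Egfr, Met and Vcl, cell-type markers and windows were also named, the genes after their values were seen. Input and Ppib libraries were not analysed here. Alternatives were another test, size factors, count filter, threshold, replicate block, samples, pseudocount, peak assignment, score, overlap, match length and gene length, and each library left out.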

Additional observations from a re-analysis of the deposited data

Results flagged for a closer look

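On untransformed CPM, KO2 replicate 3 stood apart from its group. For Tns1 it was the highest library, and its gap to the next was 0.581 of the range over the 7 knockout libraries and 0.903 of the range over the 4 KO2 libraries, past Dixon's 95% limit in both. For Tns4 it was the highest of the 4 KO2 libraries with a gap of 0.869 of the range. In all, 10 groups of 4 or 7 libraries were examined and 3 were past the limit, each time by this library. The ratios were not taken on a log scale, on which gaps between high values are narrower, so they may not hold there. The 4 KO2 libraries are among the 7 knockout libraries, so the groups overlap and this count cannot be set against a rate of chance. Without KO2 replicate 3, the log2 fold change of KO against control was -3.10 for Tns1 (adjusted p = 0.0311) and 4.47 for Tns4 (adjusted p = 0.00633). The leukocyte markers Cd68 and Ptprc were also highest in this library within KO2. Cd68 was at 19.4 CPM against 1.77 to 4.11 CPM in the other 3, and Ptprc at 0.905 CPM against at most 0.418. The third leukocyte marker, Cd3e, was at 0 CPM in each KO2 library. In KO1 libraries Cd68 was at 11.4 to 28.3 CPM, so its level here was within the knockout range. The part of these markers in the tensin values was not tested.

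Tns2 and Tns3 differed between the clones. The log2 difference of KO1 minus KO2 was 1.16 for Tns2 (adjusted p = 0.0112, edgeR) and -0.52 for Tns3 (adjusted p = 0.0405, edgeR), as tested in the fit with 3 groups.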

How the results depend on the processing

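Over the libraries left out in turn, genes called ran from 462 to 3976 for KO, 1482 to 5661 for KO1 and 1366 to 5352 for KO2 against control, and 874 to 4077 between the clones. The partner list had 2 to 8 called. The log2 fold change of KO against control ran from -3.10 to -1.35 for Tns1, 0.64 to 0.80 for Tns3 and 4.47 to 4.91 for Tns4. That of Tns2 ran from -0.93 to -0.63 and was never called. Signs turned only in uncalled differences between the clones, which ran from -0.83 to 1.49 for Tns1 and from -0.93 to 0.40 for Tns4: Tns1 was 0.23 without KO1 replicate 3 and 1.49 without KO2 replicate 3, and Tns4 was 0.31 without KO1 replicate 1 and 0.40 without KO2 replicate 3. Where 1 control is left, it is assumed to vary like the other groups.

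Same-numbered libraries did not deviate together (7 pairs, correlations from -0.20 to 0.06), so the replicate numbers were not taken as pairs. With the replicate block, 1952 genes were called in KO against control and 1736 between the clones, against 3392 and 2944, 3 partner genes were called against 6, and Tns3 was at 0.75 (adjusted p = 0.130). Tns3 in KO1 against control was then at 0.48 (adjusted p = 0.0976).

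At a threshold of 0.05, 2235 genes were called in KO against control and 1643 between the clones, and Tns3 (0.71) was no longer called. Only the groups compared gave 7752 in KO1 against control and 1932 between the clones, against 4750 and 2944 with all libraries. Tns1 was called with DESeq2 in KO (-2.42, adjusted p = 0.0595), KO1 (0.0696) and KO2 (0.0879) against control, and with no filter on low counts in KO1 (0.0878) and KO2 (0.0931). With only the groups compared, Tns1 (0.0357) and Tns3 (0.0310) were called in KO1 against control. RLE size factors kept each tensin call in the 4 comparisons, with 5 partner genes called. The minimum of 10 counts in every library removed Tns1. A score of at least 100 left 14, 7, 11 and 13 tensin peaks in the 4T1 total, odd, even and NDL lists. Per length of the longest transcript, control levels were 29.3 for Tns2, 36.2 for Tns3 and 3.73 CPM per kb for Tns4, and Tns3 in knockout libraries was at 59.2, so that Tns3 led both controls and 2 knockout libraries. Matches of 10 bases were in 20, 15, 18 and 18 peaks and of 14 bases in 3, 3, 2 and 3. The causes were not tested.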
